A study of Mus musculus with 24 samples.

Results

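The mesothelial genes examined here are Msln, Upk3b, Upk1b, Wt1 and Gpm6a, and their members were taken as every probe set annotated to any of these 5 symbols. This gave 6 probe sets for 4 of the 5 symbols, of 22690 probe sets in all (22626 without controls). Msln and Wt1 had 1 probe set each, Upk3b and Gpm6a had 2 each, and no probe set carried the symbol Upk1b. The brighter Upk3b and Gpm6a probe sets and the Wt1 probe set have the suffix _s_at, which the platform gives to probes shared by several transcripts. Lung RNA of male mice aged 8 weeks, obtained from the Jackson Lab, was hybridised to Affymetrix Mouse 430A arrays. The 24 arrays covered 12 strains with 2 arrays each. They were 9 BXH recombinant inbred (RI) strains (BXH2, BXH4, BXH6, BXH7, BXH8, BXH9, BXH10, BXH14 and BXH19), the F1 hybrid (BXHF1), and the progenitors C3 (C3H/HeJ) and B6 (C57BL/6J). No mouse was treated, and each array is labelled as 1 lung sample of n = 1. An RI strain is an inbred line that carries a fixed mosaic of the 2 progenitor genomes. Values are signal intensities on a linear scale, and each strain's n is 2.

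The mesothelium is a single layer of flat cells that covers the lung surface as the visceral pleura and lines the chest wall and the pericardium. It makes a lubricated surface, and during development mesothelial cells of the lung surface enter the organ and contribute to its mesenchyme. It is a small part of a whole lung, so its transcripts reach a whole-lung sample diluted by those of alveolar, airway, vascular and immune cells. In such bulk samples fewer mesothelial cells and less RNA per mesothelial cell cannot be told apart.

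Array medians lay between 239 and 269.6, and the correlation of log2 signals was 0.964 to 0.978 between both arrays of a strain and 0.950 to 0.976 between arrays of different strains. Of the 24 arrays, 15 correlated best with their own strain's other array. Of the 6 mesothelial probe sets, 5 were among the brighter 60% of probe sets (mean signal above 175), and the Wt1 probe set was not, at the 23.4th percentile of mean signal. The 5 measured markers of alveolar type 1 cells, the flat gas-exchange epithelium, summed to between 23995 and 40112 on every array, as a check of the labelled tissue. The second BXH10 array was the lowest of all 24 on 6 of 6 mesothelial probe sets. Its median signal was 244 and its mean correlation with the arrays of other strains was 0.965, so neither stood apart from the other arrays. BXH10 values that this array moved by over 1.5 times, or whose call or sign it changed, are given without it too.

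Of the 4 measured genes, Upk3b had the largest F values between strains and was the only one called. It encodes a uroplakin, a membrane protein of the family that forms the plaques of the bladder surface, and in mouse and human it is also a marker of mesothelium. Its brighter probe set read 907.7 and 700.1 in BXH10 lungs and 872.1 and 949.8 in BXH6 lungs. In the other 7 RI strains its 14 arrays lay between 1145.7 and 1977.9. The 4 arrays of BXH10 and BXH6 were thus below every array of the remaining RI strains, a split described after the values were seen. In F1 lungs the same probe set read 2138.1 and 2107.4, against 1527.9 and 2136.5 in C3 lungs and 1502.4 and 1560.3 in B6 lungs. Both BXH10 and BXH6 therefore lay below both progenitors, whose lowest array was 1502.4. This was not particular to them, since BXH7 (1150.5 and 1145.7) and BXH4 (1386 and 1345.5) lay below it too. Ordered by strain mean, the series ran from F1 at the top through C3, BXH19, BXH14, BXH9, BXH8, BXH2, B6, BXH4, BXH7 and BXH6 to BXH10. The ranges of 8 of the 11 pairs of neighbours overlapped, and the 3 that did not were B6 and BXH4, BXH4 and BXH7, and BXH7 and BXH6.

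The dimmer Upk3b probe set gave the same low strains with less separation. It read 881.2 and 661.5 in BXH10 lungs and 710.6 and 806.0 in BXH6 lungs, against 806.7 to 1572 on the 14 arrays of the other 7 RI strains. These ranges overlapped, since BXH7 read 876.8 and 806.7. Both arrays of a strain differed in the same direction on the 2 Upk3b probe sets in 7 of 12 strains.

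Across all 12 strains, limma's moderated F test called 2 of the 6 mesothelial probe sets at an adjusted p below 0.05, both of them Upk3b, where 5.48% of all probe sets were called. F was 16.8 for the brighter probe set (adjusted p = 1e-04) and 6.38 for the dimmer (adjusted p = 0.014). Among the 9 RI strains alone the same 2 probe sets were called, where 5.44% of all probe sets were, with F = 17.9 (adjusted p = 0.000145) and F = 6.54 (adjusted p = 0.019). The dimmer probe set's RI call was lost without the mean-variance trend (adjusted p = 0.0536), with the skeletal muscle covariate described below (adjusted p = 0.0792) and without BXH6 replicate 1 (adjusted p = 0.0548). The probe sets called among the RI strains changed when BXH10 replicate 1 was left out. The share of all probe sets called in that fit is not given here.

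The promoter of Upk3b is shown because the gene's level separates the strains, and that of Gpm6a because it is the other member found in the promoter table. From the RefSeq table for GRCm38.p6, 2 of the 5 symbols matched, with 3 promoters. Each holds 300 bases around a transcription start site. Capitals mark GGAATG or its reverse complement CATTCC, the core recognised by TEAD factors, which act with the coactivator YAP and are expressed in mesothelium. The Upk3b promoter (chr5:136038246-136038545, plus strand) holds it once, with its first base 241 bases before the start site. The first Gpm6a promoter (chr8:54779184-54779483, plus strand) holds it once, 125 bases before the start site, and the second Gpm6a promoter does not hold it. Of 32851 mouse promoters of this length, 14.7% hold these letters on either strand, and a match is not evidence of binding.
Upk3b: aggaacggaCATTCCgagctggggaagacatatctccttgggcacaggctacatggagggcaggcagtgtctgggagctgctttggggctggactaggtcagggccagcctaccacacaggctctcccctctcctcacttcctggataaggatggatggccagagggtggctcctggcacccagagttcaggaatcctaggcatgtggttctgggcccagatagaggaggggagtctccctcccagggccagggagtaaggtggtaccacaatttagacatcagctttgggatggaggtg
Gpm6a: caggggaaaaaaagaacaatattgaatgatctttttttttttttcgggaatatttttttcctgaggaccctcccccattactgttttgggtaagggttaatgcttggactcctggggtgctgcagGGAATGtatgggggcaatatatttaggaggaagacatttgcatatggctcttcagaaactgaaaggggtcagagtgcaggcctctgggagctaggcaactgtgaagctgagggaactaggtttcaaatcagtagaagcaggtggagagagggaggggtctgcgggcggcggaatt

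**Figure D1:**
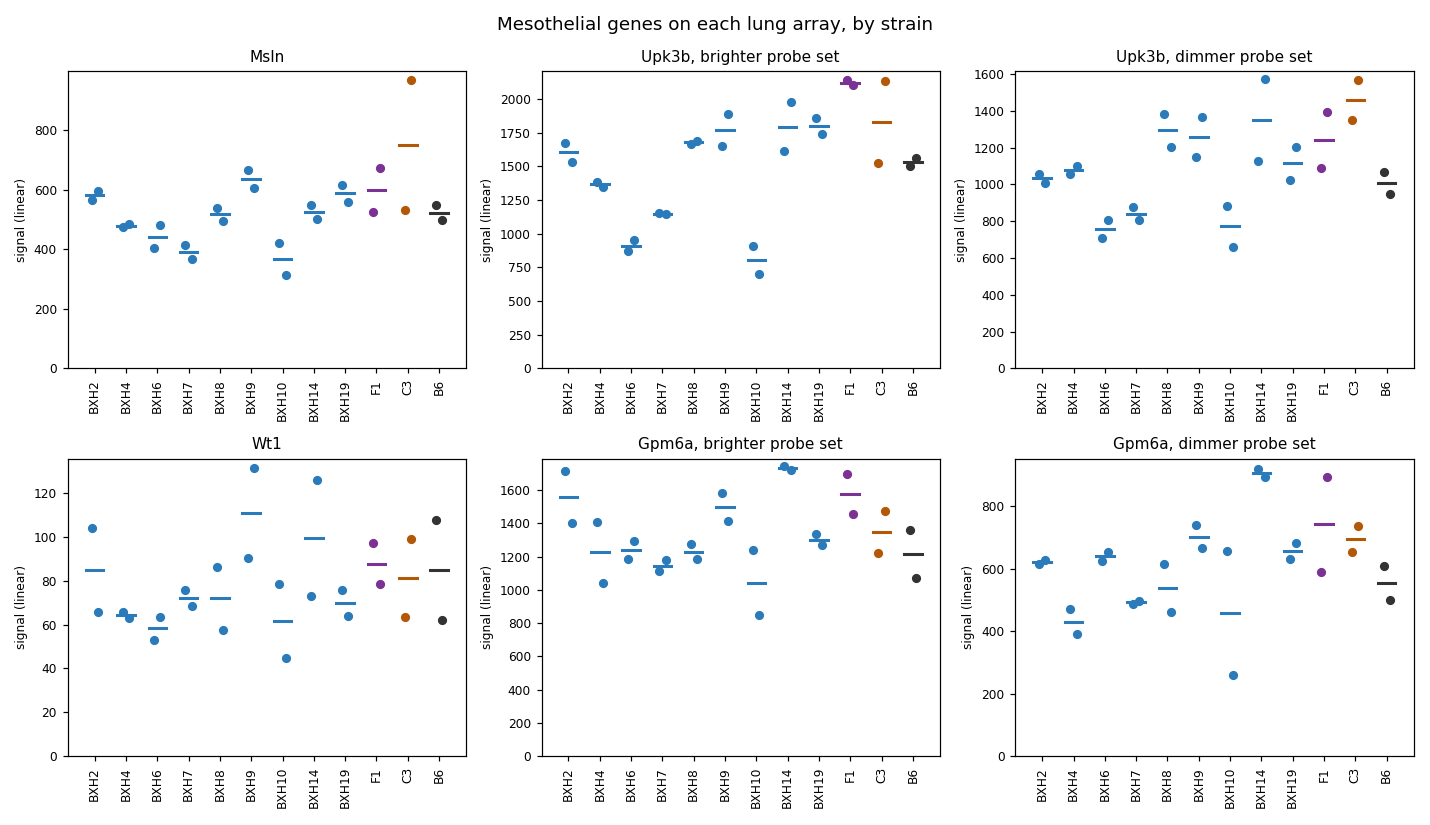
Signal of the 6 mesothelial probe sets (linear vertical axis from 0) on each of the 24 lung arrays, by strain on the horizontal axis: points are single arrays and bars are strain means (blue RI strains, purple F1, orange C3, dark grey B6). The brighter Upk3b probe set lies at or below 949.8 in BXH6 and BXH10 and at or above 1145.7 in the other strains, and the second BXH10 point is the lowest in all 6 panels.

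Msln encodes mesothelin, a glycoprotein anchored to the mesothelial surface that binds the mucin Muc16. Over the 24 arrays its signal was 313.1 at the lowest, 528 at the median and 965.9 at the highest. It read 419.3 and 313.1 in BXH10 lungs, 414.7 and 366.4 in BXH7 lungs and 404.5 and 479.6 in BXH6 lungs. The highest RI strain was BXH9, with 664.1 and 603.9. F1 lungs gave 524.1 and 673.9, against 532.8 and 965.9 in C3 lungs and 548.3 and 497.7 in B6 lungs. The top value thus came from 1 of the 2 C3 arrays, while the other C3 array lay inside the B6 range. That top array, C3 replicate 2, was also the highest of 24 for Rspo1, Krt7, Krt8, Krt19, Nkain4 and Pdpn, examined below. It was not the highest for Aldh1a2, Bnc1, Calb2, Cldn15 or Krt18. Its summed signal of skeletal muscle genes was 18958, against 2508 on C3 replicate 1. Between strains Msln did not pass the test (F = 3.53, adjusted p = 0.108 over 12 strains; F = 3.22, adjusted p = 0.165 over 9 RI strains). Without C3 replicate 1 it did, with adjusted p = 0.0079 and 0.0338 in these tests, and without C3 replicate 2 the RI test gave adjusted p = 0.0345. Fitting the 18 RI arrays alone gave adjusted p = 0.045. The C3 arrays enter the RI test only through the estimate of spread shared by all strains.

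Gpm6a encodes a membrane glycoprotein of the proteolipid family, best known in neurons and also present in mesothelium. Its brighter probe set ranged over 847.6, 1314 and 1745.3 (lowest, median, highest) and its dimmer one over 260.2, 627 and 920.3. BXH14 was the highest strain on both, with 1745.3 and 1724.1 on the brighter and 920.3 and 893.0 on the dimmer probe set. BXH10 read 1237 and 847.6 on the brighter probe set. On the dimmer one its arrays were far apart, at 655.7 and 260.2, the first above the series' median and the second the lowest of all. BXH6 read 1188.6 and 1292.9 on the brighter and 625.4 and 654.0 on the dimmer probe set, around the median of each, unlike its low Upk3b values. The F tests gave adjusted p = 0.166 and 0.222 over 12 strains and 0.134 and 0.171 over 9 RI strains for the brighter and the dimmer probe set. The dimmer probe set turned on the BXH10 arrays: adjusted p over 12 strains was 0.00449 without BXH10 replicate 1, 0.0428 without replicate 2 and 0.034 without both.

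Wt1 encodes a zinc finger transcription factor of mesothelium and kidney podocytes. Its probe set was dim, with 44.8 at the lowest, 74.5 at the median and 131.5 at the highest of the 24 arrays. The highest values were 131.5 on 1 BXH9 array and 126.1 on 1 BXH14 array, whose partner arrays read 90.5 and 73.3. Ranges overlapped in 11 of 11 pairs of neighbouring strains. No strain difference passed the test (F = 0.96, adjusted p = 0.764 over 12 strains).

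Each RI strain was next set against the mean of the other 8, on the log2(signal + 16) scale, to ask which lines stood apart. These 9 contrasts share arrays, since each strain is part of the mean for the others. In BXH10 lungs all 6 probe sets had a negative difference, and 1 passed the test, where 0.415% of all probe sets were called lower. That one was the brighter Upk3b probe set, which fell by 0.87 ± 0.11 (SE; adjusted p = 0.000376). Its call held without either BXH10 array, at -1.05 (adjusted p = 0.00172) without replicate 1 and -0.69 (adjusted p = 0.0403) without replicate 2. The others were -0.48 for the dimmer Upk3b probe set (adjusted p = 0.137), -0.48 for Msln (0.243), -0.39 and -0.54 for Gpm6a (0.269 and 0.385) and -0.29 for Wt1 (0.773). Without BXH10 replicate 2 these were -0.27 for the dimmer Upk3b probe set, -0.28 for Msln, -0.13 and 0.11 for Gpm6a and 0.026 for Wt1. That array thus moved all 5 by over 1.5 times, and the sign of the dimmer Gpm6a probe set and of Wt1 rested on it. Without replicate 1 the dimmer Gpm6a probe set reached -1.18 (adjusted p = 0.00666).

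In BXH6 lungs the brighter Upk3b probe set fell by 0.66 ± 0.11 (SE; adjusted p = 0.00431), the only mesothelial probe set called, where 0.455% of all probe sets were called lower. The dimmer Upk3b probe set stood at -0.49 (adjusted p = 0.0973), and passed without BXH14 replicate 1 (-0.52, adjusted p = 0.0483). Msln stood at -0.18, Wt1 at -0.33, and Gpm6a at -0.09 and 0.15 on its 2 probe sets. The BXH6 call did not pass with only 1 BXH6 array (adjusted p = 0.155 without replicate 1 and 0.0572 without replicate 2, at -0.60 and -0.72).

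No mesothelial probe set was called in the other 7 RI strains with limma. Of all probe sets 0.849% were called in BXH2, 4.15% in BXH4, 0.813% in BXH7, 0.765% in BXH8, 1.24% in BXH9, 0.897% in BXH14 and 0.72% in BXH19. Of the 42 member tests in these 7 strains, 16 had an unadjusted p below 0.05, as had 8.35% (BXH7) to 18.2% (BXH4) of all probe sets in each. BXH14 had the highest Gpm6a differences, 0.45 and 0.70 (adjusted p = 0.166 and 0.174), with Upk3b at 0.42 and 0.41 (0.102 and 0.199). The dimmer Gpm6a probe set passed there without either BXH10 array, at 0.78 (adjusted p = 0.00802) without replicate 1 and 0.62 (0.0362) without replicate 2. In BXH4 lungs the same probe set passed at -0.57 (adjusted p = 0.0269) without BXH10 replicate 2. BXH9 had Upk3b at 0.40 and 0.31 (adjusted p = 0.0867 and 0.284), Msln at 0.39 (0.265) and Wt1 at 0.53 (0.36). BXH19 had the brighter Upk3b probe set at 0.43 (adjusted p = 0.0952). The brighter Upk3b probe set passed in these 3 strains, at adjusted p = 0.0446 in BXH14, 0.0423 in BXH9 and 0.0442 in BXH19, when C3 replicate 1 was left out, and likewise without C3 replicate 2. In BXH19 it also passed without BXH10 replicate 1 (adjusted p = 0.0472). C3 arrays enter the RI contrasts only through the estimate of spread shared by all strains. Without C3 replicate 1 or 2 the brighter Upk3b differences thus stayed at 0.42 in BXH14, 0.40 in BXH9 and 0.43 in BXH19. BXH7 had Msln at -0.37 (adjusted p = 0.506) and Upk3b at -0.29 and -0.32 (0.402 and 0.449), so Upk3b and Msln were low in it without a call.

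**Figure D2:**
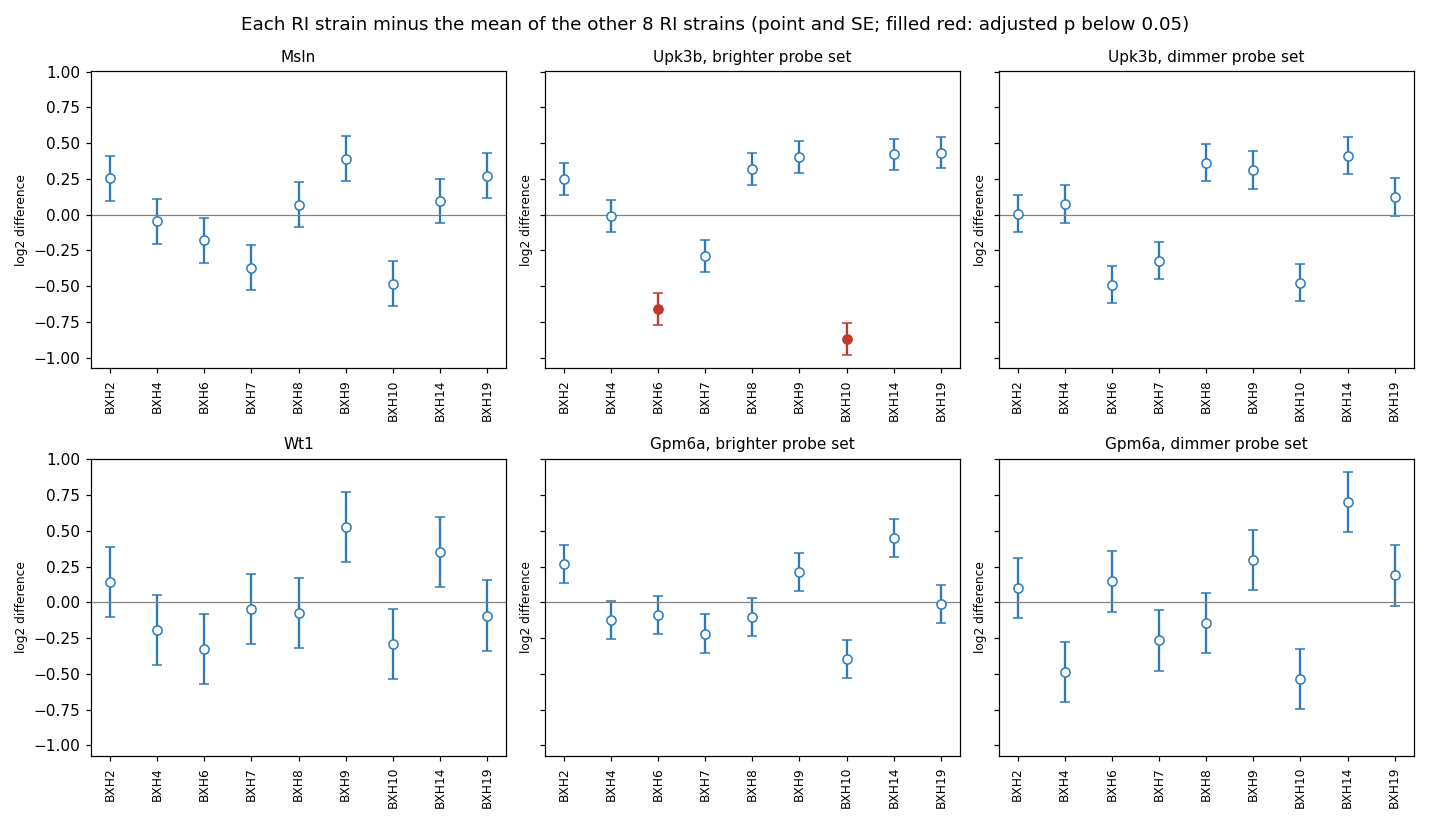
Difference of each RI strain (horizontal axis) from the mean of the other 8 RI strains, in log2(signal + 16), for the 6 probe sets: points are limma estimates from 2 arrays a strain, bars are 1 SE, and filled red points have an adjusted p below 0.05. The 2 filled points are the brighter Upk3b probe set in BXH6 (-0.66) and BXH10 (-0.87).

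The progenitors were compared to ask whether the mesothelial genes differ between the parents of the RI lines. C3 against B6 called 0 of the 6 probe sets with limma, where 1.18% of all probe sets were called, and 2 of the 6 had an unadjusted p below 0.05, as had 7.84% of all probe sets. These were the dimmer Upk3b probe set, which read 1351.9 and 1568.1 in C3 lungs against 1068.1 and 950.3 in B6 lungs (difference 0.52 ± 0.17 SE, adjusted p = 0.263), and Msln (0.45 ± 0.21 SE, adjusted p = 0.626). On the dimmer Upk3b probe set the C3 and B6 arrays did not overlap. Msln depended on which C3 array was used: 0.87 with adjusted p = 0.0407 without C3 replicate 1, and 0.03 without C3 replicate 2. The brighter Upk3b probe set stood at 0.24, and at 0.00 without C3 replicate 2. Gpm6a stood at 0.15 and 0.32, and Wt1 at -0.04.

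F1 against the mean of both progenitors also called 0 of the 6 probe sets with limma, where 0.0619% of all probe sets were called, and 1 had an unadjusted p below 0.05, as had 6.4% of all probe sets. This was the brighter Upk3b probe set at 0.35 ± 0.13 SE (adjusted p = 0.646). Its F1 arrays, 2138.1 and 2107.4, stood above 3 of the 4 progenitor arrays and beside the second C3 array at 2136.5. Gpm6a stood at 0.30 and 0.23, Wt1 at 0.09, the dimmer Upk3b probe set at 0.02 and Msln at -0.04.

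The members varied together over the 12 strain means. The permutation p-values treat these strains as independent, although the RI lines and the F1 descend from C3 and B6. With each gene taken at its brightest probe set, Pearson's r was positive in 6 of 6 pairs, and permutation p-values adjusted over the 6 pairs were below 0.05 in all of them. The share of other gene pairs with so high an r was not computed. The 6 calls are therefore not shown to be particular to the members. Over the same strain means r was 0.94 for Gpm6a with Ccnl2, 0.90 for Wt1 with Phb2 and 0.87 for Gpm6a with Mrpl32. These other genes were picked for their likeness, as described below. The closest of the 6 member pairs was Msln and Upk3b (r = 0.86, rho = 0.90, adjusted permutation p = 0.0015 and 0.00144), and r was 0.83 without BXH10 and C3, the strains farthest from the median of Msln. Wt1 and Gpm6a followed (r = 0.78, rho = 0.69, adjusted permutation p = 0.00894 and 0.0241; r = 0.87 without BXH9 and BXH6). Upk3b and Gpm6a gave r = 0.73 and rho = 0.76 (adjusted permutation p = 0.0108 and 0.0137; r = 0.68 without BXH10 and BXH6). Upk3b and Wt1 gave r = 0.73 and rho = 0.62 (adjusted permutation p = 0.0108 and 0.0368), but r = 0.48 without BXH10 and BXH6. Msln and Gpm6a gave r = 0.67 and rho = 0.75 (adjusted permutation p = 0.0218 and 0.0137; r = 0.65 without BXH10 and C3). Msln and Wt1 gave r = 0.64 and rho = 0.67 (adjusted permutation p = 0.0245 and 0.0241; r = 0.64 without BXH10 and C3). Leaving out the BXH10 strain left 2 of 6 pairs past 0.05, Msln with Upk3b (r = 0.79, adjusted permutation p = 0.0238) and Wt1 with Gpm6a (r = 0.73, adjusted permutation p = 0.0303). Leaving out BXH9 ended the call of Msln with Wt1 (r = 0.59, adjusted permutation p = 0.0533).

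Within strains the picture was mixed. Msln and the brighter Upk3b probe set differed in the same direction between both arrays of a strain in 5 of 12 strains, and Upk3b with Gpm6a, each at its brighter probe set, in 7 of 12. Upk3b with Wt1 reached 10 of 12 and Wt1 with Gpm6a 9 of 12. All members of an array share its lung and its hybridisation, and no batch is given by the labels, so within-batch values could not be computed.

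**Figure D3:**
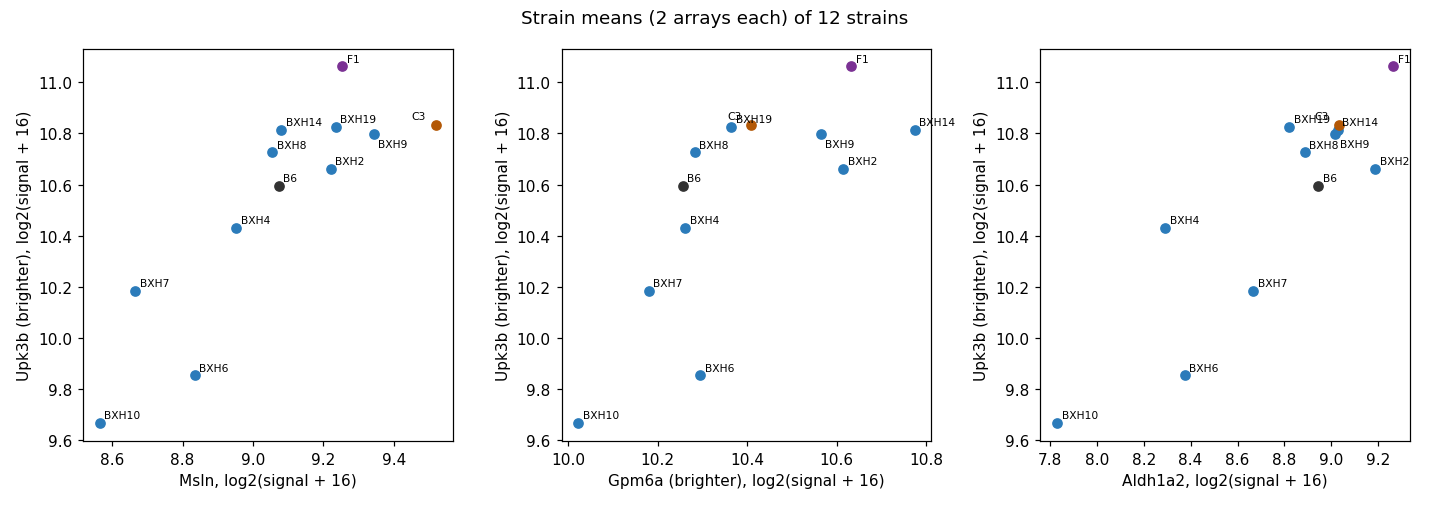
Strain means of log2(signal + 16) of the brighter Upk3b probe set (vertical axes) against Msln, the brighter Gpm6a probe set and Aldh1a2 (horizontal axes), 1 point for each of 12 strains and 2 arrays a point (blue RI strains, purple F1, orange C3, dark grey B6). BXH10 lies at the lower left in all 3 panels, while BXH6 is low for Upk3b and near the middle for Gpm6a.

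The genes most like the members were searched among 12483 probe sets of the brighter 60%. Likeness was Pearson's r over the 24 arrays with the mean of the 4 measured genes, each standardised, and is a description of arrays that share strains. First was Aldh1a2, the enzyme that makes retinoic acid from retinaldehyde and is expressed in mesothelium (r = 0.90), whose arrays differed in the same direction as that mean in 12 of 12 strains. Second was Rspo1, a secreted enhancer of Wnt signalling (r = 0.83, 9 of 12 strains). Both were on the list of other mesothelial genes used here. The next were Farsb, a subunit of phenylalanyl-tRNA synthetase (0.74), Cryz, a quinone reductase (0.71), Phb2, a mitochondrial prohibitin (0.69), the zinc finger gene Zfp644 (0.69), the mitochondrial chaperone gene Hspa9 (0.69), Socs3, an inhibitor of cytokine signalling (0.68), Clu, a secreted chaperone (0.68), and the cyclin gene Ccnl2 (0.68). Without BXH10 replicate 2, an alternative chosen after seeing the data, r was 0.85 for Aldh1a2 and 0.84 for Rspo1, still the first and the second. Phb2 (0.72), Cryz (0.69) and Hspa9 (0.66) stayed among the first 10, while Farsb (0.61), Clu (0.61), Ccnl2 (0.60), Zfp644 (0.59) and Socs3 (0.54) left them. The probe sets of Farsb, Phb2, Socs3 and Clu have the suffix _x_at, which marks probes that may also bind other sequences.

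By single member, Upk3b was most like Aldh1a2 (0.86), Rspo1 (0.80) and Myh7, a slow and cardiac muscle myosin heavy chain (0.77). Msln had the same 3 genes, at 0.74, 0.72 and 0.71. Wt1 was most like Rspo1 (0.76), Phb2 (0.74) and the kinase gene Stk26 (0.73). Gpm6a was most like Mrpl32, a mitochondrial ribosomal protein gene (0.79), Aldh1a2 (0.78) and Ccnl2 (0.78). Without BXH10 replicate 2, Upk3b gave 0.80 with Aldh1a2, 0.79 with Rspo1 and 0.71 with Myh7, Msln gave 0.64, 0.68 and 0.64 with these genes, Wt1 gave 0.73 with Rspo1, 0.74 with Phb2 and 0.73 with Stk26, and Gpm6a gave 0.72 with Mrpl32, 0.68 with Aldh1a2 and 0.73 with Ccnl2. Several of these genes then left the first 3 places. For Gpm6a, Mrpl32 ranked 7, Aldh1a2 21 and Ccnl2 5. For Msln, Aldh1a2 ranked 6, Rspo1 2 and Myh7 5. For Upk3b, Aldh1a2 ranked 1, Rspo1 2 and Myh7 4. For Wt1, Rspo1 ranked 3, Phb2 2 and Stk26 4. Within strains Myh7 moved in the same direction as Upk3b in 4 of 12, against 10 of 12 for Aldh1a2.

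Of 14 other genes of mesothelium, 11 had a probe set. Of these 11, 3 (Aldh1a2, Krt18 and Krt19) passed the F test both over 12 strains and over 9 RI strains. Of all probe sets, 5.48% passed it over 12 strains and 5.44% over 9 RI strains. The median F of the 11 genes over 12 strains was 2.43, against 1.29 for all probe sets. This was not particular to mesothelium. The median was higher for lists of skeletal muscle (4.97), smooth muscle (3.86), fibroblast (2.99) and alveolar type 1 genes (2.84). It was lower for cardiac muscle (2.31), adipose (2.15), endothelial (2.02), squamous (1.99), thymus T cell (1.25), alveolar type 2 (1.19) and club cell genes (1.04). Aldh1a2 read 276.3 and 161.3 in BXH10 lungs, and 339.3 and 260.0 in BXH4 lungs, against a median of 444 over all 24 arrays. BXH6 read 249.6 and 398.8, and the highest strain was F1 with 634.9 and 564.8. Aldh1a2 differed between strains (F = 6.09, adjusted p = 0.0168 over 12 strains; adjusted p = 0.0189 over 9 RI strains) and fell by 0.95 ± 0.18 (SE) in BXH10 lungs (adjusted p = 0.0142). Without BXH10 replicate 2 the difference was -0.59 (adjusted p = 0.395) and the RI test gave adjusted p = 0.0579. Without both BXH10 arrays the F tests gave adjusted p = 0.0706 and 0.0772, and with the skeletal muscle covariate 0.0589 and 0.0605, over 12 strains and 9 RI strains in each case.

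Krt18 and Krt19, keratins of simple epithelium that mesothelium shares with the epithelium of the lung, had a different order of strains from Upk3b. In BXH6 lungs, where Upk3b was low, Krt19 read 3357.8 and 3381.1 and rose by 1.03 ± 0.12 (SE; adjusted p = 8.37e-05). Krt18 read 2646.3 and 2158.7 there and rose by 0.69 ± 0.11 (SE; adjusted p = 0.00262), a call that was lost without BXH6 replicate 1 (adjusted p = 0.193). In BXH10 lungs Krt18 read 896.6 and 1104.5 and fell by 0.71 ± 0.11 (SE; adjusted p = 0.00261), lost without BXH10 replicate 1 (adjusted p = 0.124), and Krt19 stood at -0.45 (adjusted p = 0.102). In BXH19 lungs, where the brighter Upk3b probe set stood at 0.43 without a call, Krt18 read 955.0 and 945.9 and fell by 0.79 ± 0.11 (SE; adjusted p = 0.00106). In BXH2 lungs, where the brighter Upk3b probe set stood at 0.25 without a call, both keratins rose. Krt18 read 2240.1 and 2382.8 there (0.64 ± 0.11 SE, adjusted p = 0.00772) and Krt19 2439.2 and 2678.7 (0.58 ± 0.12 SE, adjusted p = 0.0194). In BXH8 lungs Krt19 read 1183.1 and 1344.4 and fell by 0.55 ± 0.12 (SE; adjusted p = 0.0297). These 3 calls were lost with either array of the strain left out and with the muscle covariate, the Krt19 calls also without the mean-variance trend, and the BXH8 call with median centring (adjusted p = 0.0514). In BXH4 lungs Krt19 read 1103.4 and 911.6 and fell by 0.92 ± 0.12 (SE; adjusted p = 0.000223). Between the progenitors 1.18% of all probe sets were called, and Krt19 was the only 1 of the 11 genes called. It read 2613.0 and 3498.1 in C3 lungs against 1363.5 and 1698.7 in B6 lungs (0.98 ± 0.15 SE, adjusted p = 0.00204). That call was lost without B6 replicate 1 (adjusted p = 0.0506), without C3 replicate 2 (0.0512) and when the 4 progenitor arrays were fitted alone (0.159). Likeness to the mean of the members was 0.06 for Krt18 and 0.21 for Krt19, and -0.095 and 0.15 without BXH10 replicate 2.

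The remaining 8 genes of the list did not pass either F test. Rspo1 had its lowest values in BXH6 lungs, 182.6 and 227.5, followed by BXH10 with 247.0 and 215.3, and its highest array was 413.4 in C3 (adjusted p = 0.292 over 12 strains). Cldn15, a claudin, read lowest on the second BXH10 array (177.5, median 280 over 24 arrays) and stood at -0.42 in BXH10 lungs (adjusted p = 0.303), or -0.33 without that array. Rspo1 stood at -0.27 there (adjusted p = 0.652), or -0.18 without that array. Likeness to the members was 0.48 for Cldn15, 0.37 for the basonuclin gene Bnc1, 0.30 for Nkain4, and 0.12 or less for Krt7, Krt8, Pdpn and Calb2. Without BXH10 replicate 2 it was 0.32 for Cldn15, 0.23 for Bnc1, 0.43 for Nkain4 and 0.19 or less for Krt7, Krt8, Pdpn and Calb2. Krt7, Krt8 and Pdpn are also expressed by lung epithelium, and Calb2 was dim, at 19 to 63.7 over the 24 arrays. In BXH10 lungs 0 of the 11 genes were called higher and 2 lower, where 0.358% of all probe sets were called higher and 0.415% lower. In BXH6 lungs 2 of the 11 were called higher and 0 lower, where 0.495% of all probe sets were called higher and 0.455% lower.

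The promoter of Aldh1a2, from the same RefSeq table (GRCm38.p6, chr9:71215539-71215838, plus strand), is shown because that gene followed the members most closely and Wt1 is itself a transcription factor. Capitals mark the single match to GCGNGGGNG, a motif of WT1, read on the minus strand here. The motif was searched on both strands, its first base lies 60 bases before the start site, and 12.3% of the 32851 promoters hold a match. The printed Upk3b and Gpm6a promoters hold no match to it, the Aldh1a2 promoter holds no TEAD core, and so neither motif overlaps the other. The Rspo1 promoter (chr4:124986180-124986479, plus strand), searched in the same way, holds 0 matches to either motif. By single member Wt1 was most like Rspo1 (0.76), which ranked 3 without BXH10 replicate 2 (0.73). Aldh1a2 was not among the genes listed as most like Wt1. A match is not evidence of binding.
Aldh1a2: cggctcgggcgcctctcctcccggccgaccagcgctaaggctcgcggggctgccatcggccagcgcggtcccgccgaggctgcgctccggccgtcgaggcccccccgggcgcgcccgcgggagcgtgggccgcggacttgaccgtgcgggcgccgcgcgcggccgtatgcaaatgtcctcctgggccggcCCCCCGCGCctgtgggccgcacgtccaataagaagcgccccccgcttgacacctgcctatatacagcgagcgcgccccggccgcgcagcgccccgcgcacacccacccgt

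**Figure D4:**
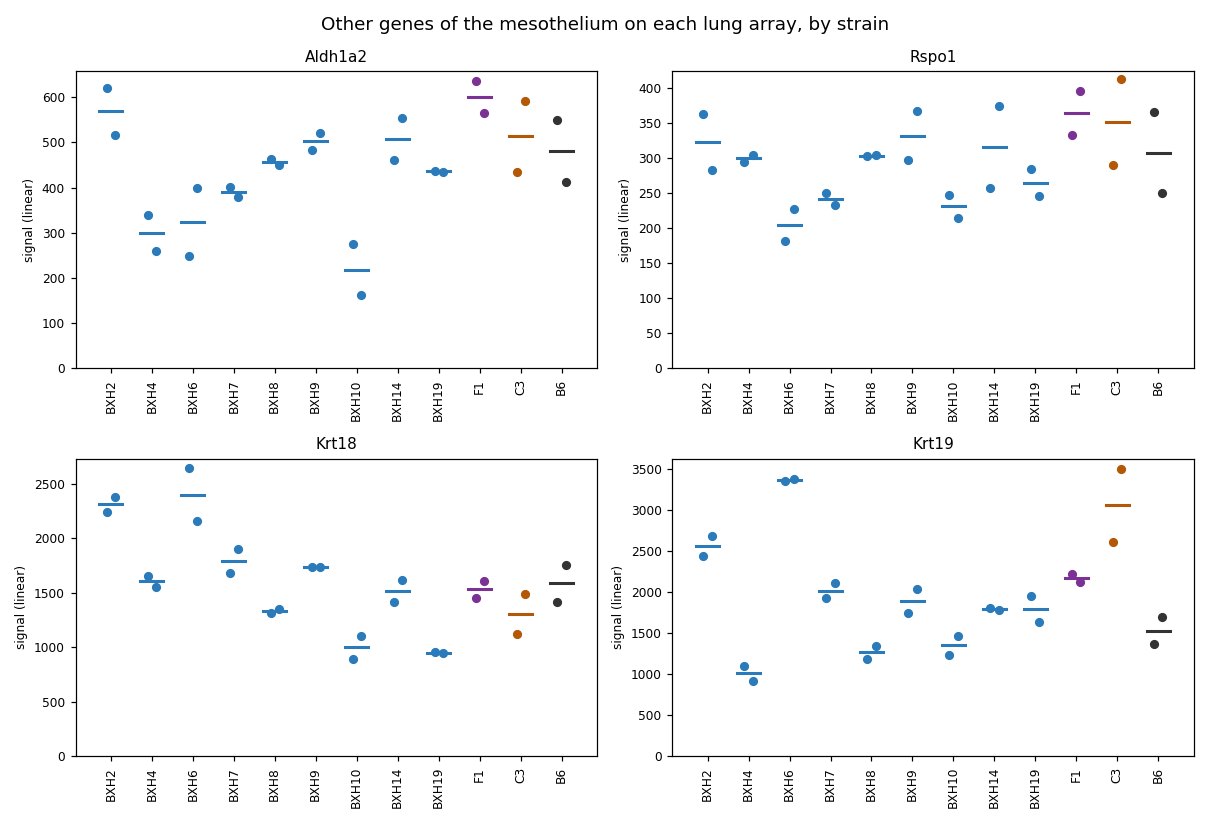
Signal (linear vertical axis from 0) of Aldh1a2, Rspo1, Krt18 and Krt19 on each of the 24 arrays, by strain: points are single arrays and bars are strain means (blue RI strains, purple F1, orange C3, dark grey B6). Aldh1a2 reads 276.3 and 161.3 in BXH10, Rspo1 reads 182.6 and 227.5 in BXH6, and Krt19 reads 3357.8 and 3381.1 in BXH6.

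The uroplakin relatives of Upk3b, which build the bladder plaques, were examined next. Over 12 strains limma's F test called 5.48% of all probe sets, and 19.3% had an unadjusted p below 0.05. Of Upk1a, Upk2 and Upk3a, 0 of 3 passed this test (adjusted p = 0.851, 0.266 and 0.452), and 0 of 3 had an unadjusted p below 0.05. Their median signals were 338, 345 and 45.7. In BXH10 lungs they stood at 0.03, 0.25 and 0.19, and each of these signs turned when 1 of the BXH10 arrays was left out: Upk1a stood at -0.40 without replicate 1, and Upk2 at -0.090 and Upk3a at -0.32 without replicate 2. Gpm6b, the relative of Gpm6a, passed over 12 strains (F = 4.95, adjusted p = 0.0376) and not over 9 RI strains (adjusted p = 0.0938). The first call was lost when any 1 of 18 of the 24 arrays was left out, with adjusted p up to 0.0967 (without C3 replicate 1).

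Lung samples can hold tissue of the chest, and skeletal muscle genes varied widely between these arrays. The summed signal of 12 of 12 measured muscle genes was 12426 and 2198 in BXH10 lungs and 2915 and 1776 in BXH6 lungs. On the 14 arrays of the other 7 RI strains it was 1636 to 43112. The F test over 12 strains called 8 of the 12 genes, where 5.48% of all probe sets were called. In some strains muscle and the brighter Upk3b probe set were both high or both low. The 10 arrays of BXH2, BXH8, BXH9, F1 and B6, with a muscle list mean of 9.65 to 11.2 (log2), read 1502.4 to 2138.1 for it, and the C3 arrays, at 6.73 and 9.95, read 1527.9 and 2136.5. BXH7, at 6.51 and 6.82, read 1150.5 and 1145.7, and BXH6, at 7.42 and 6.46, read 872.1 and 949.8. Other arrays did not follow that order. BXH19 arrays, at 7.68 and 6.36, read 1859.3 and 1742.5, and BXH14 replicate 2, at 6.58, read 1977.9. BXH10 replicate 1, at 9.52, read 907.7. With the muscle list mean as a covariate the brighter Upk3b probe set stood at -0.84 in BXH10 lungs (adjusted p = 0.000501) and at -0.57 in BXH6 lungs (adjusted p = 0.0418). With that covariate Msln in BXH6 lungs stood at 0.011.

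Summed signals of fat, squamous epithelium and cardiac muscle genes in BXH10 and BXH6 lungs lay within the range of the other RI strains, except for fat on 1 BXH10 array, which was just below it. The 6 measured adipose genes, of 8, summed to 2461 and 1446 in BXH10 lungs and 1767 and 1916 in BXH6 lungs, against 1476 to 7154 in the other 7 RI strains. The 8 squamous epithelium genes summed to 5053 and 920 in BXH10 lungs and 728 and 807 in BXH6 lungs, against 702 to 15150 in the other 7. The 8 cardiac muscle genes summed to 12210 and 13865 in BXH10 lungs and 15603 and 11443 in BXH6 lungs, against 9234 to 43089. Gene by gene, BXH6 stood below the other 8 RI strains on 8 of 8 squamous genes (median difference -1.51), 6 of 6 adipose (-0.41) and 7 of 8 cardiac genes (-0.19). BXH10 stood below them on 4 of 8 squamous, 5 of 6 adipose (-0.29) and 8 of 8 cardiac genes (-0.27). None of these differences was called. BXH7 and BXH14 were also lower on 8 of 8 squamous genes, and BXH4 and BXH19 on 8 of 8 cardiac genes. No gene of these lists had a mean signal of 0 in any strain. The part of fat, squamous and cardiac tissue in the mesothelial results was not tested.

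**Figure D5:**
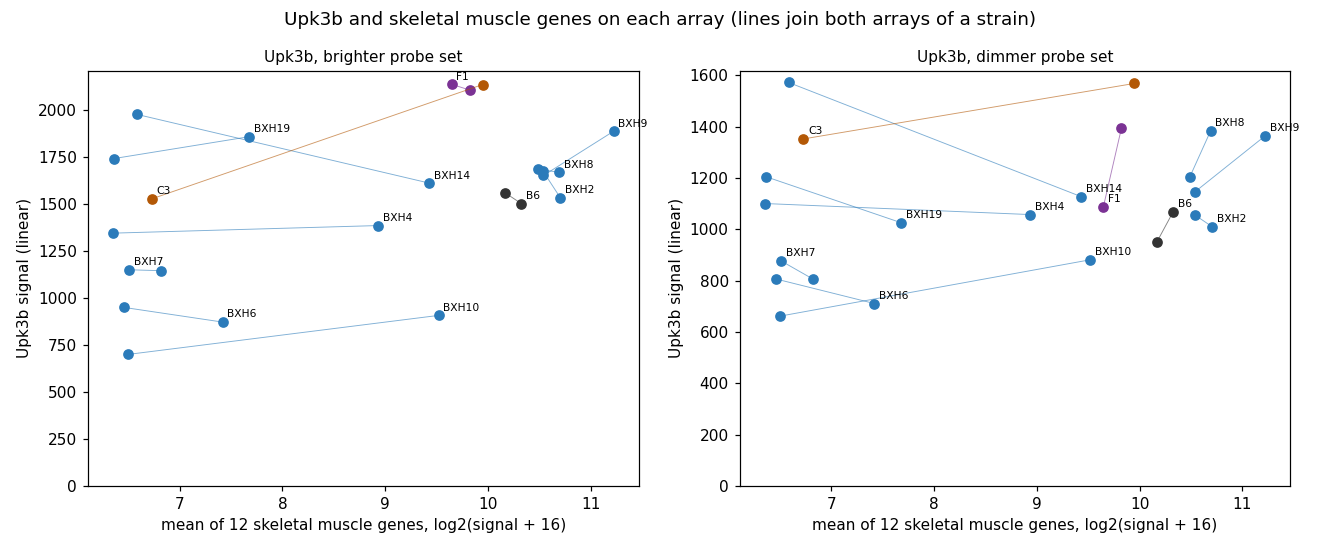
Upk3b signal (linear vertical axis from 0) of both probe sets against the mean of 12 skeletal muscle genes (horizontal axis, log2(signal + 16)) on each of the 24 arrays; lines join both arrays of a strain (blue RI strains, purple F1, orange C3, dark grey B6). BXH10 reads 907.7 and 700.1 at muscle means of 9.52 and 6.50, while BXH19 reads 1859.3 and 1742.5 at 7.68 and 6.36.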

How the data were processed

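Lung RNA of 24 arrays (12 strains, 2 arrays each) was used. The authors deposited linear signal intensity per probe set; each array's mean, trimmed by 2% at both ends, was about 500, and the sources used here do not name the software, background correction or scaling. Gene symbols came from the platform annotation (20380 probe sets with 1 symbol, 691 with several, 1555 with none, 64 controls). Log2(signal + 16) of 22626 probe sets, with no filter on dim ones, was fitted with limma 3.58.1 (R 4.3.3; lmFit, eBayes with a mean-variance trend, 12 strain means, 12 residual degrees of freedom), and p-values were adjusted by Benjamini-Hochberg over all probe sets in each comparison, with a threshold of 0.05. The fit was tested on simulated data. Pair correlations used 100000 permutations; with no Upk1b probe set there were 6 pairs and not 10. With 2 arrays a strain, the number of arrays limits the precision. The labels do not say that both samples of a strain were separate animals beyond n = 1 each, so p-values measure the spread between these samples. The members and gene lists were chosen with earlier results of these data known. Named genes were all member probe sets, list genes past the threshold with up to 4 examples, the 10 genes most like the mean of the members and the 3 most like each; other genes of the mesothelial list, and the strains singled out, were chosen after their values were seen. Alternatives were the offset (1, 64), quantile normalization, median centring, the brighter 60% of probe sets, 1 probe set a gene among these, no trend, a muscle covariate, a replicate block, only the strains compared, and leaving out each array.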

Additional observations from a re-analysis of the deposited data

How the results depend on the processing

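Of the counts of mesothelial probe sets called, those over 12 strains were 2 by the main settings and 1 of 3 probe sets when only the brightest probe set a gene among the brighter 60% was fitted, and those over 9 RI strains were 2 and then 1 of 3 under these 2 choices together, 1 without the trend and 1 with the muscle covariate. The brighter 60% alone, with 5 member probe sets, gave 2 in both tests, and the fit with 1 probe set a gene no longer holds the dimmer Upk3b probe set. Fits that each lacked a single array gave 2 to 3 calls over 12 strains, 1 to 4 over 9 RI strains (4 without BXH10 replicate 1, 1 without BXH6 replicate 1), 0 to 1 for C3 against B6 (1 without C3 replicate 1), 0 for F1, and 1 to 5 summed over the 9 RI contrasts. That sum was 2 with all arrays, 5 without BXH10 replicate 1, C3 replicate 1 or C3 replicate 2, 4 without BXH10 replicate 2, and 1 without BXH6 replicate 1 or 2. Leaving out 1 strain left 2 to 6 of 6 pair correlations past the threshold (2 without BXH10). Without both BXH10 arrays, an alternative chosen after seeing the data, 3 probe sets were called in each F test. The shares of all probe sets called in these alternative fits are not given here. A general change in the number of calls can therefore not be told apart from a change in the members. Some uncalled differences changed sign. Wt1 in C3 against B6 was 0.0041 after quantile normalization and 0.073 with the muscle covariate, Msln in F1 was 0.0099 after median centring, while in BXH6 that covariate put Msln at 0.011 and the brighter Gpm6a probe set at 0.075. When single arrays were left out, the range in BXH10 was -0.61 to 0.026 for Wt1 and -1.18 to 0.11 for the dimmer Gpm6a probe set, and -0.40 to 0.46 for Upk1a, -0.090 to 0.59 for Upk2 and -0.32 to 0.70 for Upk3a. In C3 against B6 it was -0.37 to 0.29 for Wt1, -0.015 to 0.32 for the brighter Gpm6a probe set and -0.0030 to 0.48 for the brighter Upk3b probe set. In F1 it was -0.25 to 0.17 for Msln, -0.15 to 0.20 for the dimmer Upk3b probe set, -0.072 to 0.26 for Wt1 and -0.065 to 0.52 for the dimmer Gpm6a probe set. The causes were not tested. Differences between replicates 1 and 2 correlated at -0.24 to 0.25 between strains (median -0.0073), above 0.1 in 13 of 66 pairs of strains. No shift with replicate number common to all strains was thus seen. A batch that followed replicate number only in some strains, or in opposite directions, could be missed by this check. With the replicate block the counts were 0 for C3 against B6, 0 for F1, 2 over 12 strains, 2 over 9 RI strains and 2 over the RI contrasts, as without it, and the brighter Upk3b probe set gave adjusted p = 0.00625 in BXH6 and 0.000684 in BXH10. Of single probe sets and pairs, 2518 alternative values kept their side of the threshold and their sign, 54 lost a call, 24 gained one and 25 changed sign. The 2518 include differences that were never called and fits without an array of another strain. They therefore do not measure how stable the calls were.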
